A study of Rattus norvegicus with 179 samples.

Results

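The genes described here are those that stood among the most variable between rats in the colon and not among the most variable in the other tissues sequenced, where only genes above a minimum level were ranked. They were chosen from the measured values. In each tissue, genes with a median of at least 5 CPM (the count of a gene scaled by the total count of its library) were ranked by the variance of log2(CPM + 1) over its libraries. Of the 150 highest of 10849 ranked genes in the colon, 58 also stood among the 500 highest of another tissue and were left out. A further 29 were left out as strongly enriched in the colon, with a median of at least 50 CPM that was at least 10 times that of each other tissue after adding 0.5 CPM. The remaining 63 genes, of 32545 in the table, are the members.

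In 36 male F344BN rats obtained at an age of 24 mo, RNA of the colon was sequenced together with that of the liver, the tibialis anterior muscle, the hippocampus, and the prefrontal cortex, giving 179 libraries. The rats were given Lactobacillus paracasei engineered to express angiotensin (1–7) (LPA), unmodified L. paracasei (LP), or buffer (CON) by gavage 3 times/wk for 12 wk, and they either ran on a treadmill on 5 days/wk (Ex) or did not exercise (Sed). The 6 groups (LPAEx, LPASed, LPEx, LPSed, CONEx, and CONSed) had 6 colon libraries each, 1 per rat, and all animals were aged, with no young group. All groups received gavage, including the buffer controls. Rat numbers restart in each group, and a library is named by its group and rat number.

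The colon absorbs water and salts and keeps gut bacteria apart from the body. Its wall holds an epithelium of absorptive, mucus-secreting, and hormone-secreting cells above layers of connective tissue, immune cells, vessels, smooth muscle, and enteric nerves, so a piece of colon gives RNA from all of them at once. In such bulk RNA, fewer cells of a type and less RNA per cell cannot be told apart. Angiotensin (1–7) is a peptide of the renin-angiotensin system that acts through the Mas receptor and is known to oppose effects of angiotensin II. The genes are given by Ensembl ID because the files pair the IDs with no symbols and 0 of the 32545 IDs matched the reference table used here, so no role is given for any member, and the marker lists for cell types of the colon could not be applied.

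Total counts per colon library ranged from 14763080 to 19700869. The colon libraries were compared by 411 genes whose median in the colon was at least 20 CPM and at least 10 times that of each other tissue after adding 0.5 CPM. The genes were chosen from these same libraries, so a high share in most of them was fixed by the choice. These genes took 10.4% to 14.8% of the counts in 35 colon libraries and 5.75% in LPASed rat 5. That library also had 16447 genes with at least 1 count, against 17893 to 19033 in the others, and its correlation with the median of the other colon libraries was 0.797, against 0.907 to 0.988 (Pearson, across 10849 genes). Genes enriched in the liver by the same definition, 385 in all, took 1.59% of its counts and 0.181% to 0.776% of those of the others. Results that involve LPASed rat 5 are therefore given with and without it.

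The members were of moderate level in the colon. Their colon medians ran from 5.03 to 490 CPM with a median over genes of 20.03 CPM, and the SD of log2(CPM + 1) that chose them ran from 1.12 to 2.47. The highest library of a member exceeded its lowest by a factor of 12.6 to 1463 after adding 1 CPM to each, with a median of 49.0. The 2 members just inside the limit of 150 were ENSRNOG00000006096 (rank 145, variance 1.27) and ENSRNOG00000002397 (rank 148, variance 1.26), and the 2 genes just outside it that met the other conditions were ENSRNOG00000005542 (rank 151, variance 1.24) and ENSRNOG00000012436 (rank 153, variance 1.21). There was no step in variance at the limit.

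The most variable member was ENSRNOG00000046075, with a variance of 6.11. It ranged from 0 CPM in LPEx rat 4 to 500 CPM in LPASed rat 5 around a median of 32.3 CPM, and its highest value apart from LPASed rat 5 was 191 CPM in CONSed rat 7. ENSRNOG00000006151 ranged from 0 to 151 CPM with a median of 10.8, and ENSRNOG00000007585 from 0 to 58.9 CPM with a median of 30.2. Both of these were at most 1.10 CPM in LPAEx rats 4, 6, and 9, LPEx rats 3 and 4, LPSed rat 8, CONEx rat 9, and CONSed rat 8. ENSRNOG00000006675 was the most abundant member, at 4.94 CPM in LPEx rat 3, 955.8 CPM in CONEx rat 7, and a median of 490 CPM. The others among the 10 of highest variance were ENSRNOG00000048248, ENSRNOG00000009797, ENSRNOG00000019441, ENSRNOG00000008252, ENSRNOG00000012197, and ENSRNOG00000049238, whose lowest libraries lay between 0 and 6.29 CPM and whose highest lay between 50.6 and 1847 CPM.

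Most members were low outside the colon. In 39 of the 63 the median was under 5 CPM in all 4 other tissues, and in 17 it was 0 in all 4, so these 39 were not ranked elsewhere at all. A member could therefore vary strongly in a tissue where it was too low to be ranked. ENSRNOG00000048248, under 5 CPM in all 4, had an SD of log2(CPM + 1) of 1.97 in the prefrontal cortex, 1.76 in the hippocampus, 1.41 in the liver, and 1.39 in the muscle, against 2.06 in the colon. ENSRNOG00000002911 had an SD of 2.16 in the muscle (1.67 in the colon), and in the liver ENSRNOG00000011381 had 1.195 (1.70 in the colon) and ENSRNOG00000010805 had 1.28 (1.19 in the colon), each with a median under 5 CPM there. The remaining 24 reached 5 CPM in at least 1 other tissue, 15 in the prefrontal cortex, 16 in the hippocampus, 14 in the liver, and 8 in the muscle. The colon had the highest median of the 5 tissues for 46 members, the liver for 9, the hippocampus for 3, the muscle for 3, and the prefrontal cortex for 2. ENSRNOG00000002911 was the extreme case, at a median of 103371 CPM in the liver against 24.3 CPM in the colon, where it ranged from 0.0628 CPM in CONSed rat 7 to 794 CPM in LPEx rat 4. LPEx rat 4 was also the colon library with the second highest share of liver-enriched genes (0.776%). By its medians ENSRNOG00000002911 is itself one of those genes, so its own counts are part of that share. The part of the other liver-enriched genes in its level was not tested.

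Where a member reached 5 CPM in another tissue of the same rats, its variation was small there. For the median gene it bore little relation to that in the colon. The rule allowed only genes outside the 500 most variable of each other tissue, so the smaller spread was fixed by the choice. Among the 16 members followed in the hippocampus the median SD of log2(CPM + 1) was 0.437, against 1.27 for the same genes in the colon, and it was 0.391 for 15 in the prefrontal cortex, 0.359 for 14 in the liver, and 0.391 for 8 in the muscle. The correlation of a gene's colon level with its level in the other tissue over 33 to 36 rats, which the rule did not use, had a median over genes of 0.0209 in the hippocampus, -0.0306 in the prefrontal cortex, 0.0642 in the liver, and -0.0158 in the muscle (Pearson). Single genes ran from -0.287 to 0.365. By rank (Spearman) they ran from -0.329 to 0.469, the highest being ENSRNOG00000056135 with the liver. Without LPASed rat 5 the 4 Pearson medians were 0.0543, -0.0916, 0.0589, and -0.0673, and single genes ran from -0.323 to 0.377.

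The members did not vary each on its own. Over the 36 colon libraries the median absolute correlation between 2 members was 0.407, and 25.4% of pairs exceeded 0.7 in size. Over all 10849 genes with a colon median of at least 5 CPM these values were 0.246 and 2.19%, over the 87 other genes of the 150 most variable 0.232 and 11.9%, and over the 29 genes left out as strongly colon-enriched 0.591 and 37.7%. All of these correlations share the same 36 libraries, and the spread of the members that makes a correlation visible was itself the criterion of choice, so they are a description. Without LPASed rat 5 the median for the members was 0.469 and the share 34.9%. By rank correlation the median was 0.371 and the share of pairs over 0.7 was 10.4%, or 13.3% without LPASed rat 5. After the mean of each group had been removed the median was 0.420.

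When the members were grouped by average linkage on 1 minus the correlation, cut at 0.5, 33 of them fell into 1 cluster, 10 into the next, 4 into another, and 2 into a pair, and 14 stood alone. Within cluster 1 the median correlation between members was 0.726, within cluster 2 it was 0.764, and within cluster 3 it was 0.955. Members of cluster 1 and members of cluster 2 ran opposite to each other, with a median correlation of -0.705. Without LPASed rat 5 the 3 clusters had 35, 10, and 4 members, the first including all 33 and the second being the same 10, and the median correlations were 0.802 within cluster 1, 0.850 within cluster 2, 0.957 within cluster 3, and -0.802 between clusters 1 and 2.

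**Figure D1:**
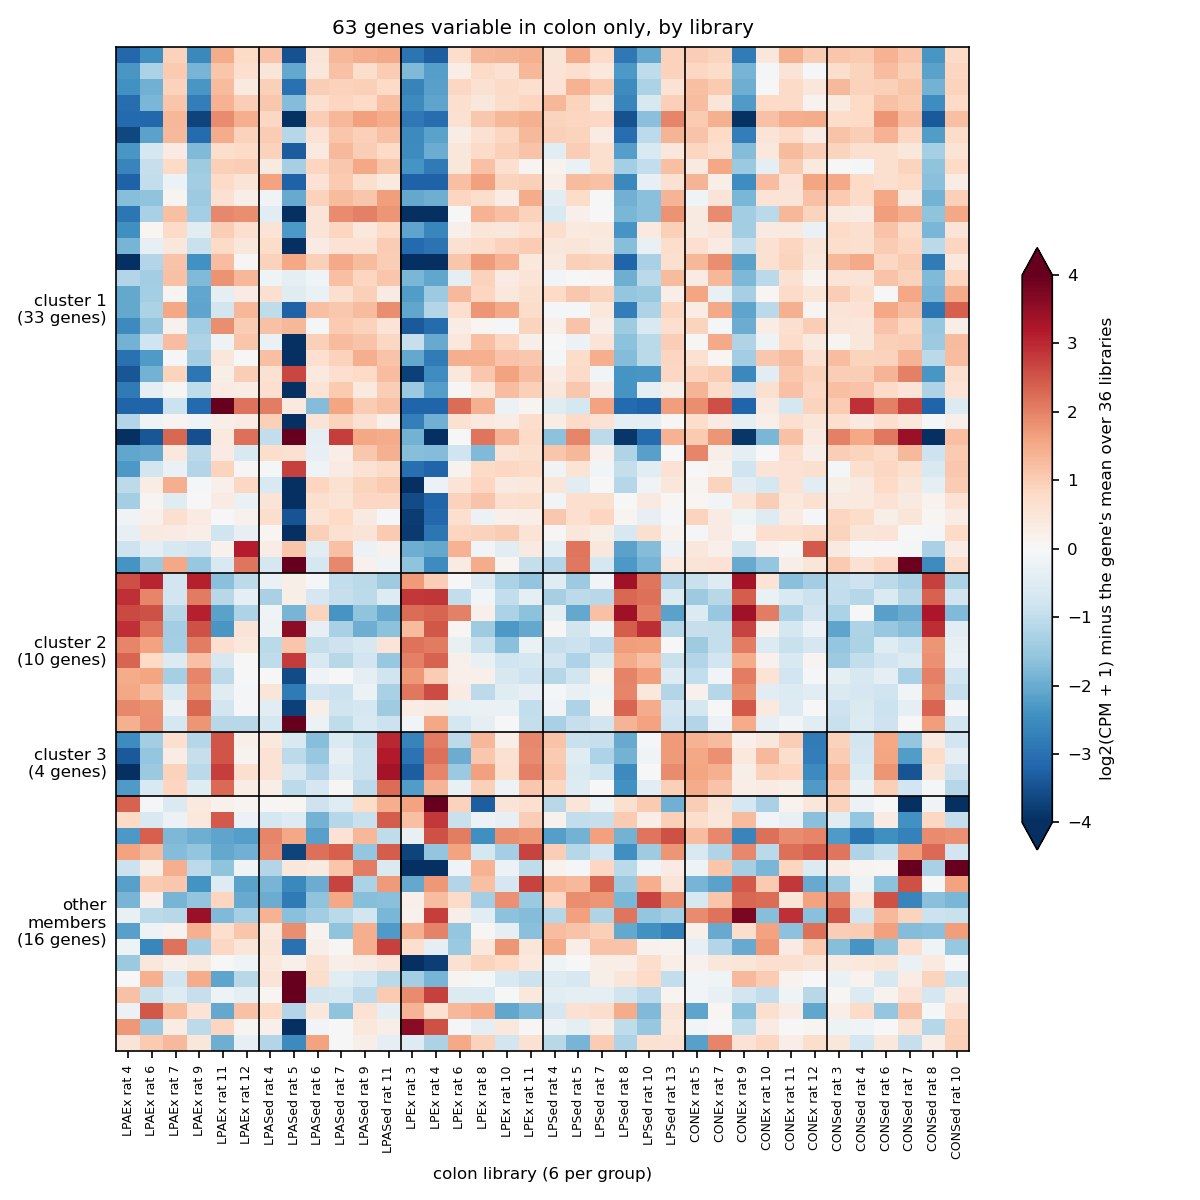
Level of the 63 members (rows, by cluster) in the 36 colon libraries (columns, by group), as log2(CPM + 1) minus the mean of the gene over the libraries; red is above and blue below that mean, and colours stop at 4 in either direction. In 10 columns, at least 1 of them in every group, the map is blue over most of the 33 genes of cluster 1, and 9 of them are red over the 10 genes of cluster 2.

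The means of clusters 1 and 2 divided the libraries into separate sets. The mean of cluster 1, as log2(CPM + 1) minus the mean of each gene, was between -2.71 and -1.08 in 10 libraries and between 0.08 and 1.10 in the other 26. The step of 1.17 between LPSed rat 10 (-1.08) and CONEx rat 10 (0.08) was the largest between neighbouring libraries, and the next largest was 0.35. The 10 libraries were LPAEx rats 4, 6, and 9, LPASed rat 5, LPEx rats 3 and 4, LPSed rats 8 and 10, CONEx rat 9, and CONSed rat 8, so that 3 of 6 LPAEx libraries, 2 of 6 in LPEx and in LPSed, and 1 of 6 in LPASed, CONEx, and CONSed were among them. The mean of cluster 2 was between 1.63 and 2.32 in 9 of these 10 and at most 0.23 in all other libraries. The exception was LPASed rat 5, where cluster 2 stood at 0.08. The split was made after the data were seen, and the 2 sets of libraries are not groups of the study.

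**Figure D2:**
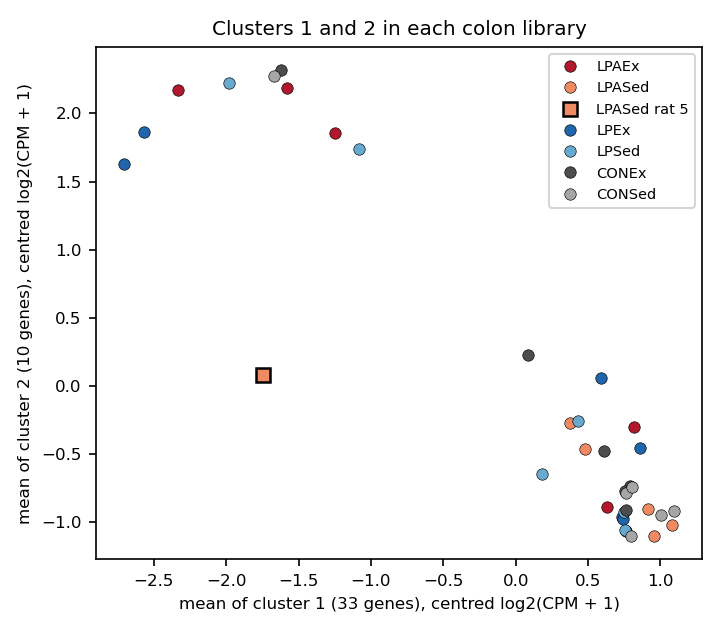
Mean of cluster 1 (33 genes, horizontal axis) against mean of cluster 2 (10 genes, vertical axis) in each of the 36 colon libraries, as centred log2(CPM + 1), coloured by group. The 9 libraries from 5 groups with low cluster 1 and high cluster 2 lie at the upper left (cluster 1 at or below -1.08, cluster 2 at or above 1.63), 26 lie at the lower right, and LPASed rat 5 (square) lies apart at -1.74 and 0.08.

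In the genes that followed cluster 1 most closely, the difference between these libraries was large. The libraries had been split by the mean of this cluster, and the genes were named for their correlation with the rest of it. A separation of the 10 libraries in these genes was therefore largely fixed by the choice and is a description. ENSRNOG00000046946 (r with the rest of the cluster 0.976) was at 0 to 1.70 CPM in the 10 libraries and at 14.2 to 31.4 CPM in the other 26. ENSRNOG00000008313 (r = 0.967) lay at 3.28 to 9.64 CPM and 19.1 to 52.9 CPM. ENSRNOG00000046858 (r = 0.963) lay at 0 to 2.23 CPM in the 10 and 6.85 to 19.4 CPM in the 26. For each of these genes the 10 libraries lay below all others. The same held for ENSRNOG00000008010 (1.53 to 12.3 CPM, and 22.0 to 53.0 CPM in the other 26), ENSRNOG00000007585 (0 to 3.87, and 22.2 to 58.9 CPM), and ENSRNOG00000008191 (0.678 to 9.31, and 25.0 to 58.3 CPM). ENSRNOG00000046858 was also expressed in the brain, with medians of 40.2 CPM in the prefrontal cortex and 52.7 CPM in the hippocampus, whereas the medians of ENSRNOG00000046946 and ENSRNOG00000007585 were at most 0.109 CPM in the other tissues. In all, 18 of the 33 genes of cluster 1 had medians under 5 CPM in the other 4 tissues, and 11 reached 5 CPM in each brain region.

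Cluster 2 showed the reverse. ENSRNOG00000012081, which follows the rest of its cluster at r = 0.955, had 328 to 1722 CPM in the 9 libraries, 193 CPM in LPASed rat 5, and 51.2 to 239.7 CPM in the other 26. ENSRNOG00000048870 (r = 0.934) had 85.8 to 168 CPM in the 9, 24.9 CPM in LPASed rat 5, and 7.19 to 19.4 CPM in the 26. ENSRNOG00000009797 (r = 0.875) had 155 to 394 CPM in the 9, 9.48 CPM in LPASed rat 5, and 6.29 to 154 CPM in the 26. In these 3 genes all 9 libraries lay above all others. The genes were named for following cluster 2, whose mean runs opposite to that of cluster 1, so this separation too was partly fixed by the choice. ENSRNOG00000001777 (28.6 to 94.1 CPM in the 9, and 1.43 to 16.5 CPM in the 26), ENSRNOG00000056135 (62.6 to 93.9, and 5.61 to 32.2 CPM), and ENSRNOG00000010076 (21.0 to 63.01, and 3.37 to 13.3 CPM) were likewise higher in each of the 9, and in ENSRNOG00000001777 and ENSRNOG00000010076 the highest colon value of all was that of LPASed rat 5, at 144.5 and 87.1 CPM. ENSRNOG00000012081, ENSRNOG00000048870, and ENSRNOG00000056135 were expressed in every other tissue too, with medians of 24.6 to 127 CPM.

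The correlations within and between clusters 1 and 2 were weaker on each side of this split than over all 36 libraries. Cutting on the mean of cluster 1 narrows its range on each side, so part of this was fixed by the split. Within the 26 libraries the median absolute correlation between members was 0.212, against 0.291 over all genes of at least 5 CPM in the same libraries, the median correlation was 0.150 within cluster 1 and 0.246 within cluster 2, and it was -0.178 between them. Within the 9 libraries the median absolute correlation between members was 0.393, against 0.351 over all genes. The median correlation there was 0.442 within cluster 1, -0.0294 within cluster 2, and -0.0143 between them. The 2 cluster means were correlated at r = -0.673 (Spearman rho = -0.525) over the 26, and at r = -0.614 after leaving out the 2 libraries farthest from the median of cluster 1. Over the 9 libraries r was 0.167 and rho 0.0833, and r was -0.687 without the 2 farthest. These values rest on few libraries chosen by the same genes and are given without a test. The SD of log2(CPM + 1) had a median over the members of 0.551 within the 26 libraries, against 1.34 over all 36 and 0.270 for all genes within the 26.

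Genes outside cluster 1 also followed its mean. Among the 10816 ranked genes outside the cluster, which include the other members, 281 (2.60%) correlated with that mean above 0.7. A further 192 (1.78%) correlated with it below -0.7, and without LPASed rat 5 the counts were 360 and 273. Among pairs of all 10849 ranked genes, 2.19% exceeded 0.7 in size. That share is for single genes, and correlation with a mean is another measure. Measures of the libraries were set beside the split. Total counts covered 15187427 to 18208881 in the 9 libraries and 14763080 to 19700869 in the 26, and the share of the 10 highest genes covered 13.3% to 24.3% and 11.4% to 30.8%, so both overlapped. Liver-enriched genes took 0.288% to 0.776% in the 9 and 0.181% to 0.340% in the 26, and muscle-enriched genes (203 genes) 0.274% to 0.505% in the 9 and 0.157% to 0.433% in the 26, with medians of 0.396% and 0.254%. Colon-enriched genes took 10.5% to 14.0% in the 9 and 10.4% to 14.8% in the 26. The part of these shares in the split was not tested, and the labels give no position along the colon, no dissection note, and no batch for the colon samples.

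**Figure D3:**
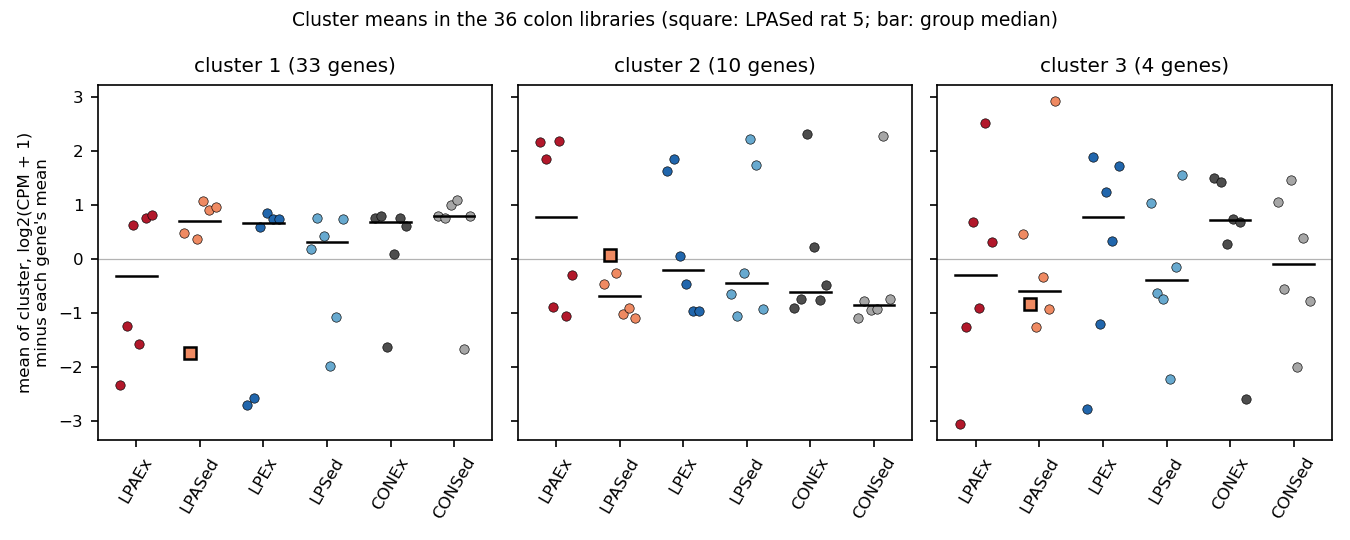
Mean of the members of clusters 1, 2, and 3 in each colon library, by group, as log2(CPM + 1) minus the mean of each gene; bars are group medians and the square is LPASed rat 5. Each group has libraries on both sides of the gap in cluster 1, and LPAEx, with 3 of 6 below it, has the lowest group median (-0.31, against 0.80 in CONSed).

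The group medians of the mean of cluster 1 were -0.31 in LPAEx, 0.70 in LPASed, 0.66 in LPEx, 0.31 in LPSed, 0.68 in CONEx, and 0.80 in CONSed, and those of cluster 2 were 0.78 in LPAEx, -0.68 in LPASed, -0.20 in LPEx, -0.45 in LPSed, -0.60 in CONEx, and -0.85 in CONSed. The ranges of all 6 groups overlapped in both clusters, from -2.33 to 0.82 in LPAEx and -1.67 to 1.10 in CONSed for cluster 1, and without rat 5 the LPASed medians were 0.92 in cluster 1 and -0.90 in cluster 2. No test was made of these means, since the same libraries had defined the clusters.

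Cluster 3 followed another order of the libraries. Its 4 genes, ENSRNOG00000015086, ENSRNOG00000045797, ENSRNOG00000022239, and ENSRNOG00000010805, were lowest in LPAEx rat 4 (cluster mean -3.06), LPEx rat 3 (-2.78), CONEx rat 12 (-2.60), LPSed rat 8 (-2.23), and CONSed rat 7 (-2.001), and highest in LPASed rat 11 (2.93) and LPAEx rat 11 (2.52). ENSRNOG00000015086 ran from 0 CPM in LPAEx rat 4 to 171 CPM in LPASed rat 11, with a median of 21.1 CPM. ENSRNOG00000010805 was the most abundant, at 11.5 to 322 CPM in the colon with a median of 67.3 CPM, and its median in the muscle was 71.0 CPM. The other 3 had medians of at most 1.98 CPM in every other tissue. The correlation within this cluster did not depend on the split of clusters 1 and 2, with medians of 0.951 within the 26 libraries and 0.965 within the 9, and its mean in LPASed rat 5 was -0.83.

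The pair of ENSRNOG00000002911 and ENSRNOG00000010478 (r = 0.523) consisted of genes far more abundant in the liver, where their medians were 103371 and 3884 CPM. In the colon both were highest in LPEx rat 4, at 794 and 65.7 CPM, and both were lowest in CONSed rat 7. LPASed rat 11 (63.1 CPM of ENSRNOG00000002911 and 50.4 CPM of ENSRNOG00000010478) and LPEx rat 3 (69.4 and 20.9 CPM) were also high in both. In LPAEx rat 11 ENSRNOG00000010478 was at 51.0 CPM, its second highest value, and ENSRNOG00000002911 at 25.4 CPM, close to its median. Of the 14 members that stood alone, ENSRNOG00000048248 was either near 0 or well above it in most libraries, with 0.186 to 50.6 CPM, and as given above it also varied in the 4 other tissues. It was at 45.4 CPM in LPAEx rat 6 and at 0.791 to 1.56 CPM in the 5 other LPAEx libraries, whereas in CONEx it was at 0.441 CPM in rat 9 and at 19.7 to 40.1 CPM in the other 5.

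LPASed rat 5 shaped part of the choice of members. It was the lowest library for 23 of the 63 and the highest for 9, and it gave the largest single share of the sum of squares for 29. The variance that chose the members includes this library, and the same counts were not made over all genes. They are therefore a description and not a trait of the members. Without it, 52 of the 63 genes stayed members. The 11 that did not stay were 7 of cluster 1, 1 of cluster 2, and 3 of those that stood alone (ENSRNOG00000009514, ENSRNOG00000013932, and ENSRNOG00000056001). ENSRNOG00000009345 had the largest share of the sum of squares in that library among cluster 1, at 54.9%, with 0.663 CPM there and 6.75 to 98.0 CPM in the other 35. ENSRNOG00000006807 of cluster 2 went the other way, with 1013 CPM in LPASed rat 5 and 13.2 to 123 CPM in the others. Of the 33 genes of cluster 1, LPASed rat 5 lay below the range of the 26 libraries for 23, within it for 6, and above it for 4. The mean of these same genes had set the 26 libraries apart and placed LPASed rat 5 outside them. A position below their range was thus largely fixed by the split, and the counts are a description.

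**Figure D4:**
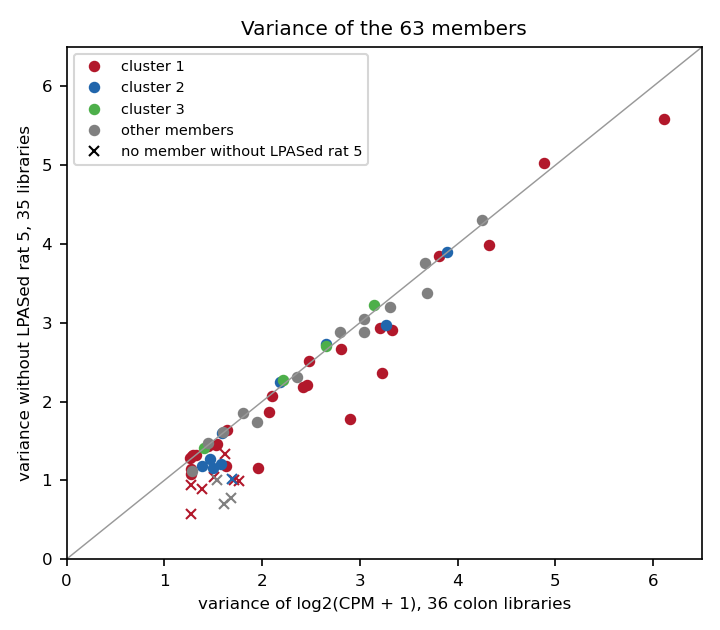
Variance of log2(CPM + 1) of each member over the 36 colon libraries (horizontal axis) and over the 35 without LPASed rat 5 (vertical axis), coloured by cluster; the line marks equal values. The 52 genes drawn as circles stay members without that library, and the 11 crosses, all below the line, do not.

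The groups of the study were then compared. The share of a member's variance of log2(CPM + 1) that lay between the 6 groups had a median of 9.86% (range 1.49% to 33.2%), against 9.10% over all 10849 genes, and without LPASed rat 5 the medians were 13.9% and 9.99%. In each fit all 15898 genes that passed the filter on low counts were tested with edgeR's quasi-likelihood test, and all 63 members passed it. A gene was called with a false discovery rate (FDR, Benjamini-Hochberg over all genes) under 0.10 and, between 2 groups, an absolute log2 fold change over 1. The total variance that chose the members contains the variance between groups, so counts of called members are a description and nothing is read from them about the members as a set.

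In LPAEx versus CONSed, 0 of 63 members were called, beside 0 of all genes (percent called 0). An unadjusted p under 0.05 was found for 4 members (6.35%), all lower in LPAEx, and for 667 genes in all (4.195%), and DESeq2 called 1 member and limma voom 1. The smallest p belonged to ENSRNOG00000008252, which had 7.89 to 73.1 CPM in LPAEx (median 18.4) and 9.86 to 1847 CPM in CONSed (median 30.1). The CONSed libraries of rats 7 and 10 stood at 902 and 1847 CPM, and the other 4 at 9.86 to 32.2 CPM, within the range of LPAEx. Its log2 fold change was -4.07 (SE 1.06, FDR = 0.999 by edgeR, and 0.0373 by DESeq2, where it was called), and by voom it was -1.78. ENSRNOG00000052444 of cluster 1 had 5.13 to 31.3 CPM in LPAEx (median 13.9) and 6.11 to 74.5 CPM in CONSed (median 45.2), a log2 fold change of -1.59 (SE 0.61, FDR = 0.999). In both genes the groups overlapped. The median log2 fold change over the members was -0.29, against 0.03 over all genes. Members vary together, with 33 of them in cluster 1, so they are not separate observations of a direction. Of the 6 LPAEx libraries 3, and of the 6 CONSed libraries 1, belonged to the 10 with low cluster 1, and the part of this in the median was not tested.

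The other comparisons of LPAEx gave the same count. Against CONEx, LPSed, and LPEx, 0 members and 0 of all genes were called (percent called 0 in each), with 2, 1, and 3 members and 625, 279, and 633 genes at an unadjusted p under 0.05. DESeq2 called 0 members in each of these comparisons and voom 0. ENSRNOG00000048209 had 2.75 to 26.6 CPM in LPAEx (median 3.67), against 3.32 to 98.8 CPM in LPSed (median 52.1) and 8.70 to 73.9 CPM in CONEx (median 38.5). Its log2 fold change was -2.39 (SE 0.91, FDR = 1.00 by edgeR) versus LPSed and -2.17 (SE 0.91, FDR = 0.994) versus CONEx. These comparisons share the LPAEx libraries. ENSRNOG00000002397 was at -1.29 versus CONEx (SE 0.56, FDR = 0.994), and at -0.72 without CONEx rat 5. Versus LPEx, the smallest p belonged to ENSRNOG00000056001, at -1.47 (SE 0.69, FDR = 0.999), which had 6.52 to 68.4 CPM in LPAEx and 14.9 to 254 CPM in LPEx and was at -0.47 without LPEx rat 3. ENSRNOG00000002911 followed it, at -1.94 (SE 0.92, FDR = 0.999) and at 0.13 without LPEx rat 4, where the direction turned. Versus LPSed the next after ENSRNOG00000048209 was ENSRNOG00000052444, at -1.12 (SE 0.60, FDR = 1.00).

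In LPAEx versus LPASed, 13 genes were called (percent called 0.0818), all lower in LPAEx, and 0 of them were members. At an unadjusted p under 0.05 there were 10 members (15.9%), 5 higher and 5 lower, and 828 genes (5.21%), and DESeq2 and voom called 0 members. ENSRNOG00000009514 had 3.12 to 16.5 CPM in LPAEx (median 4.75) and 2.81 to 385 CPM in LPASed (median 5.54), with a log2 fold change of -3.36 (SE 0.89, FDR = 0.254 by edgeR). ENSRNOG00000013932 had 1.65 to 30.9 CPM in LPAEx (median 8.09) and 4.41 to 565 CPM in LPASed (median 11.6), with a log2 fold change of -2.78 (SE 0.87, FDR = 0.487). In both genes the highest LPASed value was that of rat 5 and the other 5 LPASed libraries reached 15.1 and 17.7 CPM. Without LPASed rat 5 the log2 fold changes were 0.02 and 0.45, and the direction turned.

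Averaged over the 3 treatments, exercise versus no exercise gave 2 called genes (percent called 0.0126) and 0 members, with 6 members (9.52%) and 700 genes (4.40%) at an unadjusted p under 0.05. ENSRNOG00000008252 was at a log2 fold change of -1.75 (SE 0.56, FDR = 0.803 by edgeR, and -1.09 by voom). ENSRNOG00000029522 of cluster 1, at 283 CPM in LPASed rat 5 and at most 86.0 CPM elsewhere, was at -1.82 (SE 0.72, FDR = 1.00), and at -0.87 without LPASed rat 5. For LP versus CON over both activities and for LPA versus LP over both activities, 0 members and 0 of all genes were called (percent called 0 in each), with 3 and 4 members and 501 and 546 genes at an unadjusted p under 0.05. ENSRNOG00000008252, with its high CONSed rats 7 and 10, had a log2 fold change of -2.17 (SE 0.70, FDR = 1.00) in LP versus CON by edgeR and of -0.82 by voom. ENSRNOG00000013932 was at 2.18 (SE 0.61, FDR = 0.999) in LPA versus LP, and at 0.56 without LPASed rat 5. The next smallest p belonged to ENSRNOG00000002911 in LP versus CON, at 1.52 (SE 0.64, FDR = 1.00) and at 0.49 without LPEx rat 4, and to ENSRNOG00000048209 in LPA versus LP, at -1.82 (SE 0.63, FDR = 0.999) and at -1.70 without LPASed rat 5. DESeq2 and voom called 0 members in these 3 comparisons. A test of whether the effect of exercise differed among the 3 treatments called 0 of 15898 genes by edgeR, and 0 members, with 420 genes and 5 members at an unadjusted p under 0.05. Without LPASed rat 5 it again called 0 members. This test was run in edgeR only.

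A total of 3 members were called in the test of any difference among the 6 groups, of 91 genes called in all (percent called 0.572). They were ENSRNOG00000008252 (FDR = 0.00629 by edgeR), ENSRNOG00000009514 (FDR = 0.0106), and ENSRNOG00000013932 (FDR = 0.0247). DESeq2 called all 3 as well. Voom called 0 members, with an FDR of 0.832 for ENSRNOG00000008252, 0.886 for ENSRNOG00000009514, and 0.920 for ENSRNOG00000013932, and with rat number as a block in edgeR the FDR was 0.99 for each. ENSRNOG00000008252 had medians of 18.4 CPM in LPAEx, 34.7 in LPASed, 16.9 in LPEx, 26.5 in LPSed, 19.9 in CONEx, and 30.1 in CONSed. Its single high values in CONSed rats 7 and 10 (902 and 1847 CPM) and its low values in LPEx rats 3 and 4 (0.494 and 0.263 CPM) stood outside the range of 6.48 to 109.9 CPM of the other 32 libraries. Without CONSed rat 10 its FDR was 0.281. ENSRNOG00000009514 was highest in LPASed rat 5 (385 CPM), LPEx rat 4 (50.7 CPM), and LPEx rat 3 (27.7 CPM), and had group medians of 4.45 to 8.15 CPM. ENSRNOG00000013932 was at 565 CPM in LPASed rat 5 and at 1.65 to 30.9 CPM in the other 35. Without LPASed rat 5 the FDR was 0.548 for ENSRNOG00000009514 and 1.00 for ENSRNOG00000013932, and ENSRNOG00000008252 alone of the 63 was still called, of 30 genes in all. In edgeR each of the 3 calls was thus lost without a single library. DESeq2 without LPASed rat 5 still called ENSRNOG00000009514 (FDR = 0.0679) and ENSRNOG00000008252, and no longer ENSRNOG00000013932 (FDR = 1.00).

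**Figure D5:**
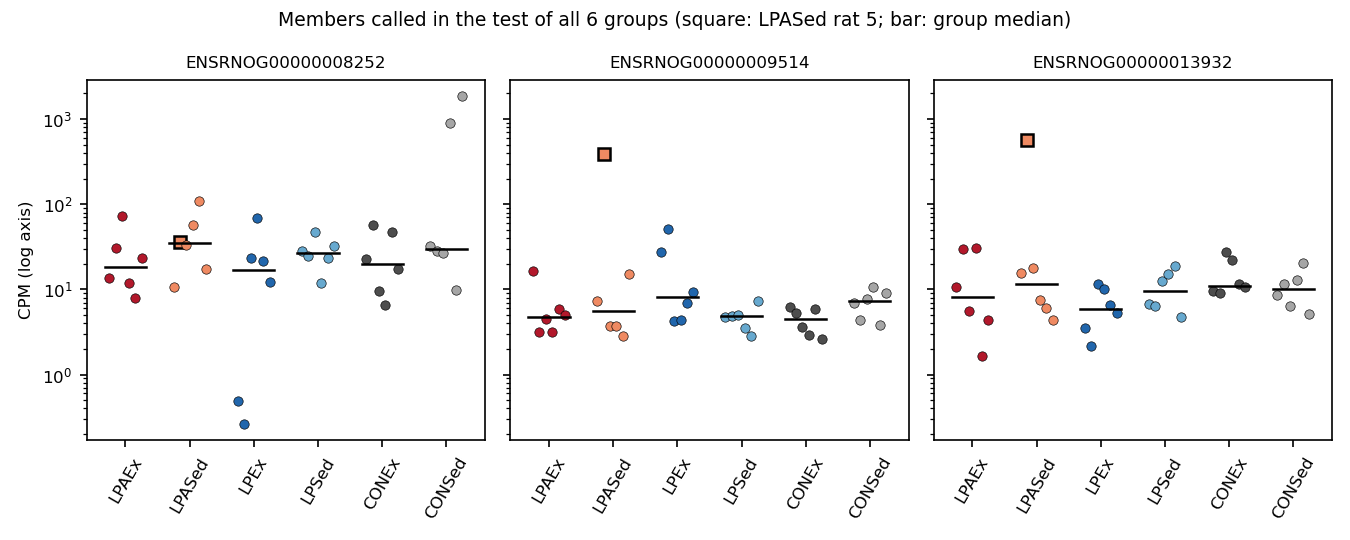
CPM (log axis) of the 3 members called in the test of any difference among 6 groups, in each colon library; bars are group medians and the square is LPASed rat 5. ENSRNOG00000008252 is at 902 and 1847 CPM in 2 of the 6 CONSed libraries, and ENSRNOG00000009514 and ENSRNOG00000013932 reach 385 and 565 CPM in LPASed rat 5.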

How the data were processed

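RNA of 5 tissues was selected by poly(A) and sequenced in pairs. Reads were checked with FastQC, trimmed with Trim Galore and cutadapt, and aligned to Rnor_5.0 with STAR, and the authors deposited the resulting gene counts, whole numbers that had not been normalized, in 1 table of 179 libraries. Versions, strand setting, and annotation release were not given in the sources used here. Groups and rat numbers were taken from the sample labels, and 0 columns had no sample.

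CPM were computed from column totals, with the liver libraries of LPAEx rat 7 and LPEx rat 4 left out of the ranking. The members, the lists, and the rule were chosen with earlier results of these data known. The colon libraries, of which 0 pairs were identical, entered 1 fit in edgeR 4.0.16 under R 4.3.3, with the 6 groups as levels of a single factor, its filter by group, TMM scaling, and quasi-likelihood F tests in 9 comparisons, and the SE is the size of the log2 fold change divided by the square root of F. The labels state no separate cultures or cages, so p-values measure the spread between rats of a group.

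Alternatives were DESeq2 1.42.0, limma 3.58.1 voom with quality weights, RLE size factors, no filter, rat number as a block, only the groups compared, and each library left out. DESeq2 and voom without LPASed rat 5 were chosen after the data were seen. Genes named were the 10 members of highest variance, the 6 closest to the rest of each cluster of at least 5 members, those called or, where there were none, the 2 of smallest p in each comparison, and the neighbours of the limit; cluster 3, the pair, ENSRNOG00000009345, ENSRNOG00000006807, and the column split were chosen after their values were seen. In simulated LPAEx versus CONSed data of 15898 genes, edgeR called 43.3% of the genes set to a 2-fold change. It called 85.1% of those set to 4-fold, 95.5% of those set to 8-fold, and 9 unchanged genes. The changed genes were drawn from all genes tested, whereas the members were chosen for large spread. These shares therefore do not give the recovery of changes in members. Tables and figures were made in Python 3.11.15 with numpy 2.4.6, pandas 2.3.3, scipy 1.17.1, and matplotlib 3.10.9.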

Additional observations from a re-analysis of the deposited data

Results flagged for a closer look

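In 19 measures (cluster means, members of highest variance or called, and library measures), each of the 6 groups was searched for a library separated from the other 5 by a gap that, as a share of the range of the group, exceeds Dixon's critical value for 6 libraries. Of 114 groups searched, 20 had one. Chance gives about 1 in 20 for separate measures not chosen by their values. The members were chosen for large spread, and some of them are part of the cluster means. The count therefore cannot be set against that rate and is a description. Values are on the log2 scale unless a unit is given.

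In the mean of cluster 1, LPASed rat 5 stood at -1.74 (others 0.37 to 1.08), CONEx rat 9 at -1.62 (others 0.08 to 0.79), and CONSed rat 8 at -1.67 (others 0.76 to 1.10). In the mean of cluster 2, CONEx rat 9 stood at 2.32 (others -0.91 to 0.23) and CONSed rat 8 at 2.28 (others -1.10 to -0.74). In cluster 3, CONEx rat 12 stood at -2.60 (others 0.28 to 1.49).

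Single members showed the same libraries. ENSRNOG00000006675 was at 5.92 in CONEx rat 9 and 5.25 in CONSed rat 8 (lowest of the others 8.51 and 8.48). ENSRNOG00000007585 was at 0 in LPASed rat 5, 0 in CONEx rat 9, and 0.58 in CONSed rat 8, with all other libraries of these groups at or above 4.68. ENSRNOG00000046075 was at 0.15 in CONSed rat 8 (others 5.36 to 7.59). ENSRNOG00000009514 was at 4.13 in LPAEx rat 4 (others 2.04 to 2.78) and 8.59 in LPASed rat 5 (others 1.93 to 4.01), and ENSRNOG00000013932 at 9.15 in LPASed rat 5 (others 2.44 to 4.23). ENSRNOG00000048248 was at 5.54 in LPAEx rat 6 (others 0.84 to 1.36) and 0.53 in CONEx rat 9 (others 4.37 to 5.36).

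Of the library measures, LPASed rat 5 had 16447 genes detected (others of its group 18446 to 18826) and 5.75% of counts in colon-enriched genes (others 12.8% to 13.8%), and LPSed rat 4 had 18773 genes detected (others 18175 to 18372).

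Many members were also high in a library that the comparisons do not use. In the liver library of LPAEx rat 7, which was left out of the ranking, 45 of the 63 members were above all 33 liver libraries that were ranked. The same count was not made over all genes, so nothing is read from it about the members as a set. The median member there was at 14.3 CPM, against 0.0478 to 0.334 CPM in the other liver libraries and 4.45 to 31.4 CPM in the colon libraries.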

How the results depend on the processing

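The counts of called members were 0 in the 8 comparisons between groups and 3 in the test of any difference, and most alternatives gave the same counts. In LPAEx versus CONSed, DESeq2 called 1 member (ENSRNOG00000008252, 6 genes in all), voom 1 (ENSRNOG00000002397, 25 in all), DESeq2 without LPASed rat 5 called 1, and voom without it 2 (ENSRNOG00000002397 and ENSRNOG00000011381, 30 in all). With voom, 30 members (47.6%) had an unadjusted p under 0.05 in that comparison, against 14.9% of all genes, and 32 (50.8%, against 13.2%) versus LPASed. By edgeR there were 4 versus CONSed and 10 versus LPASed, and by DESeq2 5 and 13. Members vary together, with 33 of them in cluster 1, so these counts are not of separate observations and are a description. In the test of any difference, voom called 0 members, voom without LPASed rat 5 called 0, and DESeq2 without it 3, of which ENSRNOG00000008252 and ENSRNOG00000009514 were among the 3 of the edgeR test and ENSRNOG00000056001 was not. Leaving out 1 library gave 1 to 3 members in this test (30 to 124 genes). It gave 0 to 1 members in LPAEx versus LPASed (0 to 33 genes), with ENSRNOG00000009514 called without LPASed rat 9. In the others it gave 0 members, with 2 to 9 genes in exercise versus no exercise and at most 1 gene elsewhere. Where no count over all genes stands beside a count of members, nothing is read from it about the members. In LPAEx versus LPASed, ENSRNOG00000009514 turned to a log2 fold change of 0.0247 without LPASed rat 5 (DESeq2 0.0178, voom 0.0082) and was as low as -4.01 without another single library, and ENSRNOG00000013932 to 0.45 (DESeq2 0.45, voom 0.62, and voom with all libraries 0.53), with a lowest value of -3.20. In LPAEx versus LPEx, ENSRNOG00000002911 turned to 0.13 without LPEx rat 4 (lowest value without another library -2.81), 0.55 by voom, and 0.56 by voom without LPASed rat 5. The cause of the differences between tools was not tested.

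Rat numbers are shared between groups by label only, and for that reason they were not taken as pairs. Correlations of deviations from the group means were computed between colon libraries of different groups. Over 49 pairs with the same number the median was 0.175, and 28 were over 0.1. Over 491 other pairs the median was -0.0249, and 157 were over 0.1. Libraries of the same number were thus somewhat more alike, and the source of this was not tested. With rat number as a replicate block 0 members were called in the test of any difference, and 0 in the other 8 comparisons.

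Of the 63 members, 40 stayed when the minimum was a median of 1 CPM (66 members then), 62 with TMM-scaled CPM, 61 with log2(CPM + 0.5), 59 with the variance within groups, 56 with the 2 liver libraries kept, and 52 to 63 without 1 colon library. The median absolute correlation was 0.469 without LPASed rat 5 and 0.371 to 0.420 otherwise.

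Depth limits the low values most. A count of 0 allows up to 3 counts, which is 0.152 to 0.203 CPM in a colon library, and this covers counting error only.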
